A study of Mus musculus with 9 samples.

Results

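Kinesins are motor proteins that step along microtubules. The genes described here are those whose symbol in the deposited count table is Kif followed by a number and at most a letter from a to c, or Kifc followed by a digit. The rule took 42 of the 56748 genes in the table, and 36 of the 42 had enough counts to test. It leaves out kinesins with other names, such as Cenpe, and it used no measured value.

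Polyadenylated RNA was sequenced from cortical cells of C57BL/6J mice, wild type and 2 to 3 months old, in 3 groups of 3 biological replicates. Uninjured cortex had no wound, and injured cortex carried stab wounds set in a grid. Cells of both groups were sorted fresh, so that debris, dead cells and neurons (positive for CD171 and negative for ACSA-2) were removed. Reactive cultures came from lesion tissue grown in a medium containing fetal bovine serum, and the whole culture was taken without that sort. For the time from wound to dissection the labels say 1 day, and for the culture 6 days, but the series' design text says 3 days for injured cortex and 24 h plus 8 days for the cultures. How many animals went into a library is not given in the sources used here.

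All kinesins share a motor domain that splits ATP, and their tails set the cargo or the place of action. A dividing cell uses a set of them to build the spindle, align and separate chromosomes and cut the daughter cells apart, and the genes of this set are switched on late in the cell cycle. Other kinesins carry vesicles, mitochondria and RNA in cells of any cycle state, along axons in neurons and out along the processes of oligodendrocytes and astrocytes, and a few serve cilia. By these roles the 42 genes were divided into 12 mitotic, 17 transport, 6 cilium and 7 other genes. Unlike the symbol rule, this division was made with earlier results of these data known.

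Promoter sequences are shown first. Most mitotic members share letters there, which the symbol rule did not use. Windows of 300 bases, 250 before to 50 after a gene's annotated start, were read from RefSeq on mouse build GRCm38.p6, and 32 of the 42 members had one. The cell cycle genes homology region (CHR) is a short element through which late cell cycle genes are kept off in resting cells and switched on before mitosis, often together with a CCAAT box. Each window was searched on both strands for the CHR in the forms TTTGAA and TTTAAA, for CCAAT, and for the E2F forms TTTCCCGC and TTTGGCGC. The 4 windows below belong to the mitotic members with the smallest adjusted p between injured and uninjured cortex, and capitals mark every match.
Kif22, chr7:127042371-127042670, minus strand: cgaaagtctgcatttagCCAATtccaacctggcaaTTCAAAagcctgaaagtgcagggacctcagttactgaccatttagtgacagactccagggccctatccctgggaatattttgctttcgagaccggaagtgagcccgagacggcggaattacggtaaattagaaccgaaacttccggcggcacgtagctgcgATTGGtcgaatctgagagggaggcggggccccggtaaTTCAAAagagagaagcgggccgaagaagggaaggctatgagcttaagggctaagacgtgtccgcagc
Kif4, chrX:100625815-100626114, plus strand: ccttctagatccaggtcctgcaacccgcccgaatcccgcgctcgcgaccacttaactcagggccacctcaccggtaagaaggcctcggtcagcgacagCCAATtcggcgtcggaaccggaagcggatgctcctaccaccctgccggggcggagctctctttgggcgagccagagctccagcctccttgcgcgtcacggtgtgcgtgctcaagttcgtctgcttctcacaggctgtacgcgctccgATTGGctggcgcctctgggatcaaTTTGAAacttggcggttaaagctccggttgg
Kif2c, chr4:117178723-117179022, minus strand: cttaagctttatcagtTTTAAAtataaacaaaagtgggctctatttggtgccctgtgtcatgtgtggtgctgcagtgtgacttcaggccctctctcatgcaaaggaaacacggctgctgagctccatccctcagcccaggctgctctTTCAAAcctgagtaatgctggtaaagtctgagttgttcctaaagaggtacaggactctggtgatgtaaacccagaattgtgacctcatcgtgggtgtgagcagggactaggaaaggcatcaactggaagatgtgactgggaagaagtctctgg
Kif20b, chr19:34922108-34922407, plus strand: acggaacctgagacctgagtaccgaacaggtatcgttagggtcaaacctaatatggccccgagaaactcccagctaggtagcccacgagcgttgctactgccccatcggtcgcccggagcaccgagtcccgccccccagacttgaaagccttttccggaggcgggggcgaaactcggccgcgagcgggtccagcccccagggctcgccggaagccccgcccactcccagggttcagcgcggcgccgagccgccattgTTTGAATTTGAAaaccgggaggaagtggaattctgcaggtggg
Each of these 4 windows held TTTGAA or its reverse complement TTCAAA. In Kif20b, 2 copies stood side by side just after the start, in Kif4 a copy lay downstream of the start, and in Kif22 a copy lay just upstream of it.

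Of the 11 mitotic kinesins with a window, 10 held the TTTGAA form, against 17.9% of all 32851 windows of this length. The remaining window, of Kif18a, held neither CHR form but an E2F match, as did the window of Kif15. A CCAAT box stood in 7 of the 11 mitotic windows and in 37.4% of all windows, and all 7 of them also held a CHR form, a combination found in 10.7% of all windows. An E2F match stood in 2 of the 11, against 1.56% of all. Among the transport kinesins, 1 of 13 windows, from 11 genes, held TTTGAA and 4 held CCAAT. Kif14 and Kifc1 held TTTGAA and CCAAT and were not called after injury, whereas Kif18a, with no CHR form, was called. A match is a run of letters and not a measured binding site, and its part in the changes was not tested.

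Total counts per library ranged from 12205049 to 24302770, and the kinesins took 0.0511% to 0.122% of them. Levels below are normalised read counts scaled with trimmed-mean (TMM) factors, written CPM, and a single count was worth 0.034 to 0.0783 CPM. Several libraries stood apart from their group. In uninjured replicates 2 and 3, 2003 olfactory and vomeronasal receptor genes, which cortex does not use, summed to 152 and 112 CPM, against 18.4 to 39.0 CPM in the other 7 libraries. Genes with long exons, of at least 6198.5 bases, were high relative to genes of at most 2181.5 bases in injured replicate 3, with a log2 difference of 0.32, in culture replicate 1 (0.26) and in uninjured replicates 2 and 3 (0.12 and 0.23). That difference was between -0.19 and -0.05 in the other 5 libraries. Of the in vivo cell types the sort should keep, astrocyte, oligodendrocyte and microglia markers were abundant, while 12 neuron markers summed to 24.2 to 39.0 CPM in uninjured and 54.5 to 109 CPM in injured cortex.

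Injured and uninjured cortex were compared first. The mitotic kinesins were higher after injury, 10 of 12, and the transport kinesins as a group were not, with 1 of 17 called lower. By edgeR's quasi-likelihood test at a Benjamini-Hochberg adjusted p under 0.05, 10 of the 36 tested members were higher, against 8.99% of all 18093 genes tested, and 1 was lower, against 2.87%. All 10 were mitotic. The median log2 fold change was 3.00 for the 12 mitotic members, -0.43 for the 17 transport members and 0.00 for all genes tested. Summed over the 12 genes, mitotic kinesins were at 8.67, 10.8 and 12.1 CPM in the uninjured libraries and at 93.1, 87.3 and 54.7 CPM in the injured ones. The groups did not overlap, and injured replicate 3 was the lowest of its group. The share of all genes whose groups do not overlap was not counted, here or for the genes below. Some uncalled members, such as Kif24 and Kif3c, did not overlap in this comparison either. As these are bulk libraries, more cells of a type and more RNA per cell cannot be told apart.

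**Figure D1:**
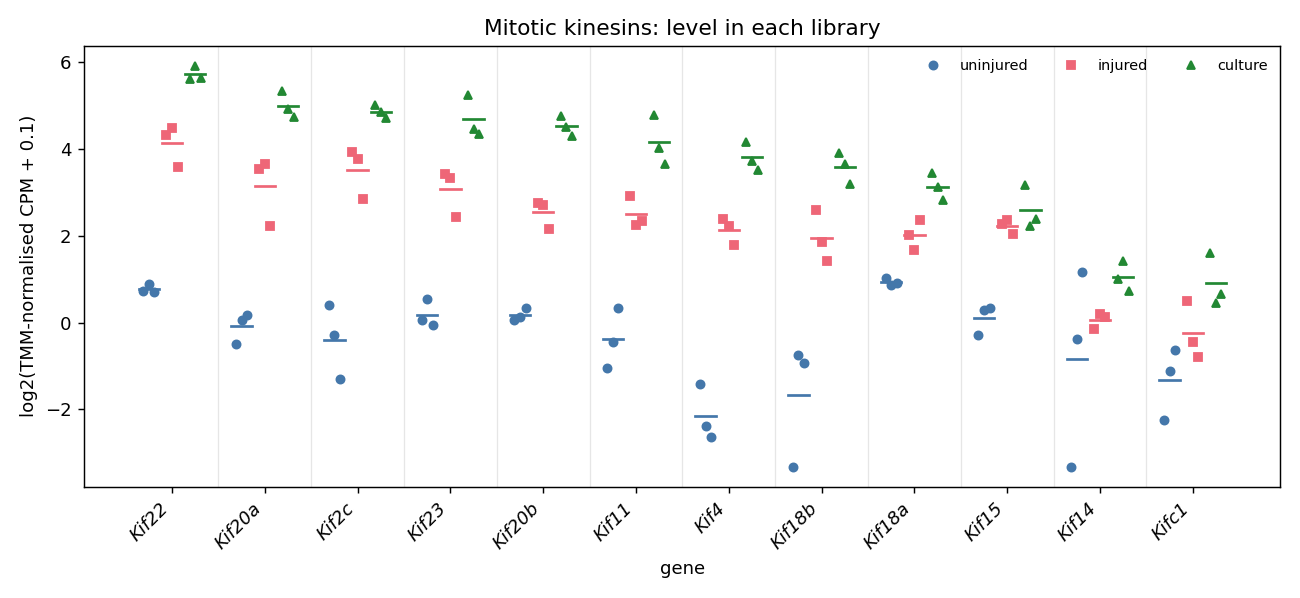
Level of the 12 mitotic kinesins in each library, as log2(CPM + 0.1), with 3 libraries per group and a bar at the group mean. For Kif22, uninjured libraries sit at 1.52 to 1.75 CPM, injured at 11.9 to 22.2 and cultures at 49.0 to 60.3. Uninjured libraries reach the level of injured cortex and of the cultures for Kif14, and that of injured cortex alone for Kifc1.

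Among the motors that act on chromosomes, Kif4, a chromokinesin that also organises the midzone of the anaphase spindle, had the largest change of any member. It was at 0.276, 0.09 and 0.061 CPM in uninjured cortex and at 5.10, 4.56 and 3.37 CPM in injured cortex, a log2 fold change of 4.87 ± 0.49 (SE; adjusted p = 8.48e-05, edgeR). The uninjured values rest on 5, 2 and 1 counts, so the size of the fold is loosely fixed. Kif22, the chromokinesin that pushes chromosome arms towards the spindle equator, was at 1.55, 1.75 and 1.52 CPM in uninjured cortex and at 20.0, 22.2 and 11.9 CPM in injured cortex (3.48 ± 0.28, adjusted p = 2.09e-05 in edgeR's test). Its lowest injured library, replicate 3 at 11.9 CPM, was far above the highest uninjured one at 1.75 CPM. Kif2c, which takes microtubule ends apart at centromeres and so frees wrongly attached chromosomes, rose from 1.22, 0.72 and 0.305 CPM to 15.1, 13.5 and 7.05 CPM (3.97 ± 0.43, adjusted p = 1.48e-04 in edgeR's test). As for Kif22, injured replicate 3 was the lowest of its group.

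The pair of kinesin-8 motors, which set microtubule length at plus ends, differed in size of change. Kif18b was at 0, 0.495 and 0.427 CPM in uninjured and at 5.90, 3.51 and 2.59 CPM in injured cortex (3.65 ± 0.65, adjusted p = 0.00332 in edgeR's test). Kif18a, which damps the swings of chromosomes at metaphase, was at 1.93, 1.71 and 1.77 CPM and at 3.96, 3.09 and 5.04 CPM (1.16 ± 0.32, adjusted p = 0.0369 in edgeR's test). Kif18a had the smallest change among the 10, its groups did not overlap, and its highest injured library was replicate 3, where most mitotic members were lowest. Its call was lost in 11 of 18 alternatives, with adjusted p up to 0.409 when uninjured replicates 2 and 3 were left out.

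A bipolar spindle needs Kif11, the kinesin-5 that slides the spindle poles apart, and Kif15, which can take over part of that work. Kif11 was at 0.387, 0.63 and 1.16 CPM in uninjured and at 7.41, 4.66 and 5.0 CPM in injured cortex (2.98 ± 0.45, adjusted p = 0.0011 in edgeR's test). Kif15 was at 0.718, 1.12 and 1.16 CPM and at 4.72, 5.03 and 4.02 CPM (2.19 ± 0.38, adjusted p = 0.00299 in edgeR's test). For both genes every injured library was above every uninjured one, although with uninjured replicates 2 and 3 left out together Kif15 had an adjusted p of 0.0604.

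The kinesin-6 motors work at the midzone and the midbody, where the daughter cells part. Kif20a, which brings the chromosomal passenger complex to the midzone, rose from 0.608, 0.945 and 1.04 CPM to 11.5, 12.6 and 4.56 CPM (3.45 ± 0.42). Kif23, which forms centralspindlin with Racgap1, rose from 0.939, 1.35 and 0.854 CPM to 10.7, 10.1 and 5.34 CPM (3.03 ± 0.38). Kif20b, which takes part in abscission, rose from 0.939, 0.99 and 1.16 CPM to 6.61, 6.49 and 4.39 CPM (2.49 ± 0.30). Their adjusted p were 2.59e-04, 3.74e-04 and 2.33e-04 in edgeR's test, and none of the 3 had overlapping groups. Reads of Kif20a may include some of Cdc23, since 29.3% of the exon bases of Kif20a overlap that gene on the opposite strand and the strand setting of the count is not given. Cdc23 was at 34.4 ± 10.6 CPM (mean ± SD, n = 3) in uninjured cortex, 26.9 ± 6.08 CPM in injured cortex and 43.0 ± 6.92 CPM in the cultures. In the same way 15.1% of the exon bases of Kif4 overlap Pdzd11, which was at 62.1 ± 4.03, 70.3 ± 13.7 and 107 ± 9.39 CPM.

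The other 2 mitotic members were not called. Kif14, which works with citron kinase at the midbody, was at 0, 0.675 and 2.13 CPM in the uninjured libraries and at 0.802, 1.05 and 0.987 CPM in the injured ones (0.03 ± 0.86, adjusted p = 0.987, edgeR). Its uninjured counts were 0, 15 and 35 in replicates 1, 2 and 3, and replicates 2 and 3 are the libraries with the receptor gene counts. With those 2 left out, Kif14 was called higher (7.19, adjusted p = 0.0401, edgeR), a fold that depends on the prior count, since the remaining uninjured library had 0 counts. Kifc1, a minus-end motor that gathers spindle poles, was at 0.11, 0.36 and 0.549 CPM and at 1.32, 0.628 and 0.476 CPM, and the groups overlapped (1.24 ± 0.68, adjusted p = 0.276, edgeR). Kifc1 has a near copy in Kifc5b, at 0.387 to 1.48 CPM across the in vivo libraries, and counting may have split reads between them.

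Most genes that work beside these motors were higher too. In a list of 20 spindle and midbody partners 18 were higher and 0 lower, with a median of 3.84. In a list of 15 proliferation genes 14 were higher, where 8.99% of all genes tested were higher and 2.87% lower. Plk1, a kinase that drives mitosis, rose by 4.97 on the log2 scale, Cdca8, of the chromosomal passenger complex, by 4.48, Tpx2, which nucleates spindle microtubules, by 4.06 and Nuf2, of the kinetochore, by 3.99. The exceptions were Cit, the citron kinase gene (1.50, adjusted p = 0.0508), and Anln, for the actin-binding protein anillin, at 51.6 to 101 CPM in uninjured cortex and 37.2 to 52.6 CPM in injured cortex (-0.66, adjusted p = 0.193, edgeR). Cenpe, the centromere kinesin that the symbol rule leaves out, rose from 1.50 ± 0.146 to 13.8 ± 1.55 CPM (3.18 ± 0.25).

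Monocyte and neutrophil markers moved with this comparison too. All 6 of them were called higher after injury, against 8.99% of all genes tested. They summed to 31.7 to 106 CPM in uninjured, 400 to 1842 CPM in injured and 21.0 to 36.0 CPM in culture libraries. Within injured cortex they were at 1842, 791 and 400 CPM in replicates 1, 2 and 3, the same order as the mitotic sum of 93.1, 87.3 and 54.7 CPM. That order was not particular to them. Oligodendrocyte markers, at 18072, 16316 and 12858 CPM, and dynein and dynactin genes, at 1805, 1524 and 1298 CPM, had it too. The part of monocytes and neutrophils in the change after injury was not tested.

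Of the transport kinesins, Kifc2 alone was called after injury. Kifc2, a minus-end-directed motor known mainly from neurons, was at 11.7, 9.94 and 11.2 CPM in uninjured and at 3.59, 3.77 and 5.75 CPM in injured cortex, and the groups did not overlap (-1.32 ± 0.31, adjusted p = 0.016, edgeR). The call was lost without injured replicate 1 (adjusted p = 0.0715), without injured replicate 2 (0.0552) and with uninjured replicates 2 and 3 left out together (0.144), and the log2 fold change stayed between -1.43 and -1.22 there. In Kifc2, 4.15% of the exon bases overlap Cyhr1 on the opposite strand. Cyhr1 had 13461 counts over all libraries against 1269 for Kifc2, so reads of Kifc2 may include some of Cyhr1. Kif5b, the kinesin-1 heavy chain found in most cells, was at 118, 113 and 108 CPM and at 142, 152 and 133 CPM (0.33 ± 0.19, adjusted p = 0.288, edgeR). Its groups did not overlap either, although the difference was small and did not pass. Kif3a, a subunit of the heterotrimeric kinesin-2 that drives transport into cilia, was at 94.6, 95.0 and 80.3 CPM and at 56.3, 49.0 and 71.1 CPM (-0.61 ± 0.20, adjusted p = 0.0693, edgeR).

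Injured replicate 3 set much of what was seen among the transport kinesins. Kif1b, which carries mitochondria and vesicle precursors, was at 118, 241 and 266 CPM in the uninjured libraries and at 89.8, 67.0 and 234 CPM in the injured ones. Injured replicate 3 thus lay with uninjured replicates 2 and 3, and uninjured replicate 1 lay nearer to injured replicates 1 and 2. Kif21b, Kif13a and Kif13b, which carry membrane cargo or act on microtubule growth, were high in the same 3 of the 6 libraries. Kif21b was at 21.0, 43.8 and 56.8 CPM against 18.2, 19.1 and 49.96 CPM, Kif13a at 21.2, 36.7 and 39.2 CPM against 17.8, 15.4 and 41.3 CPM, and Kif13b at 26.6, 39.4 and 46.1 CPM against 18.6, 19.4 and 37.8 CPM. Among the 6 in vivo libraries, the relative level of long genes was also highest in those 3, and its part in this was not tested. Without injured replicate 3, 8 members were lower in place of 1, against 8.96% of all genes in that fit. They were Kifc2, Kif1b, Kif3a, Kif3c, Kif13a, Kif13b, Kif21a and Kif21b, with adjusted p from 0.00599 for Kif1b to 0.045 for Kif21b among the 7 added. Kif3a and Kif21a were also called lower in some fits that kept all libraries, such as the DESeq2 Wald test (adjusted p = 0.0114 and 0.0327). Kif21a was at 36.3, 57.2 and 46.4 CPM in uninjured and at 22.1, 17.1 and 34.7 CPM in injured cortex, without overlap (-0.92 ± 0.32, adjusted p = 0.087, edgeR).

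**Figure D2:**
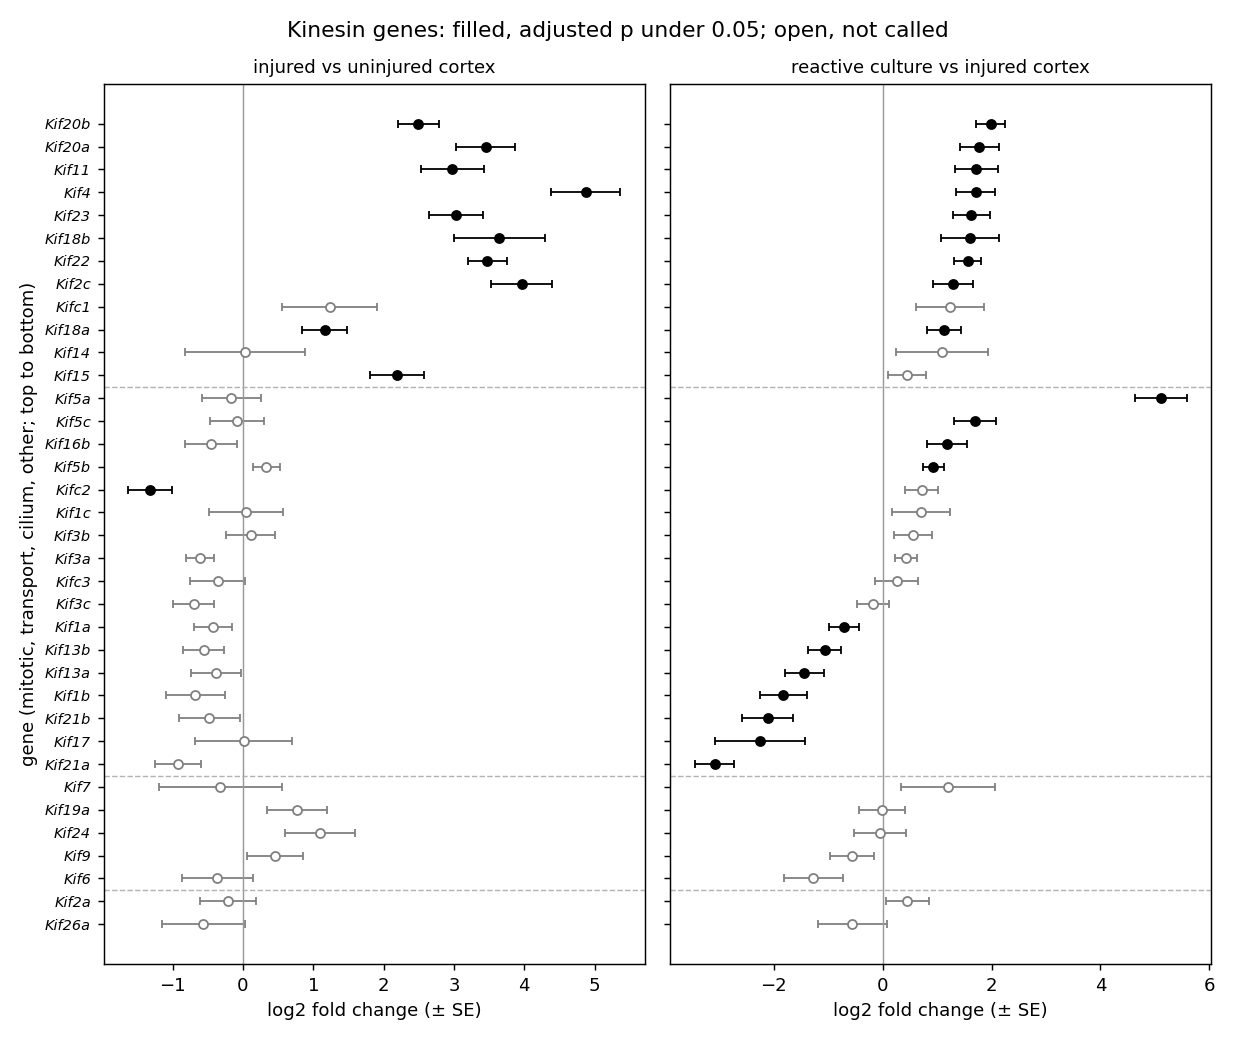
Log2 fold change (x axis, error bar SE) of the 36 tested kinesins, grouped from top to bottom as mitotic, transport, cilium and other. The left panel sets injured against uninjured cortex and the right panel reactive cultures against injured cortex, and filled points have an adjusted p under 0.05. On the left 10 mitotic genes and Kifc2 are filled, and on the right Kif5a has the largest increase (5.10) and Kif21a the largest decrease (-3.09).

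Cultures were next compared with injured cortex. The mitotic kinesins were higher again, 9 of 12, and the transport kinesins split, 4 of 17 higher and 7 lower. Among all genes tested 20.0% were higher and 30.1% lower, not far from the transport split. Of the 36 tested members 13 were called higher, against 20.0% of all genes tested, and 7 lower, against 30.1%, so the share of lower members was below the background and that of higher members above it. The median log2 fold change was 1.58 for mitotic and 0.26 for transport members, against -0.19 for all genes tested. The 7 tested members of the cilium and other roles were not called. Without injured replicate 3, 18 members were higher in place of 13, adding Kif3a, Kif3b, Kif1c, Kifc2 and Kif7, against 18.5% of all genes in that fit. In the same fit 5 were lower in place of 7, against 25.9% of all genes, and the calls of Kif1a and Kif17 were lost. This comparison shares the injured libraries with the previous one and so is not independent of it.

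Of all members, Kif5a had the largest change. Kif5a, known as the heavy chain of neurons and a gene whose faults cause motor neuron and spastic paraplegia disorders, was at 7.68, 6.79 and 8.91 CPM in uninjured cortex, at 5.33, 4.97 and 10.4 CPM in injured cortex and at 97.2, 353 and 267 CPM in the cultures. The 3 cultures lay far above all 6 in vivo libraries and differed among themselves, with replicate 1 lowest. The log2 fold change was 5.10 ± 0.48 against injured cortex (adjusted p = 5.08e-06, edgeR) and 4.94 ± 0.47 against uninjured cortex (adjusted p = 3.65e-06). Kif5c, the other heavy chain held to be neuronal, was at 7.27, 6.49 and 12.3 CPM in injured cortex and at 13.1, 40.9 and 30.4 CPM in the cultures (1.69 ± 0.39, adjusted p = 0.00358 in edgeR's test). Culture replicate 1 was again lowest and was just above injured replicate 3. Kif5b rose from 142, 152 and 133 CPM to 253, 301 and 260 CPM (0.93 ± 0.19, adjusted p = 0.00161 in edgeR's test).

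Within a library the 3 heavy chains can be set against each other per length of exon. Kif5b made up 86.6%, 87.0% and 82.7% of kinesin-1 heavy chain counts per kb in uninjured replicates 2, 1 and 3, and 83.9% to 92.2% in injured cortex. Kif5a was 5.95% to 7.8% of them in uninjured and 3.44% to 7.49% in injured cortex, and 29.3%, 53.8% and 50.9% in the cultures. In culture replicates 2 and 3 Kif5a therefore exceeded Kif5b, at 40.1% and 43.4%, and in culture replicate 1 it did not. The Kif5a share was 39.7 percentage points higher in the cultures than in injured cortex. A two-sided exact permutation test of 3 against 3 libraries gave p = 0.1, the smallest such a design allows, or 0.18 after adjustment over the 9 tests of shares. The Kif5c share was 3.86% to 6.1% in the cultures and 4.4% to 8.64% in injured cortex, and these overlapped (exact p = 0.7).

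**Figure D3:**
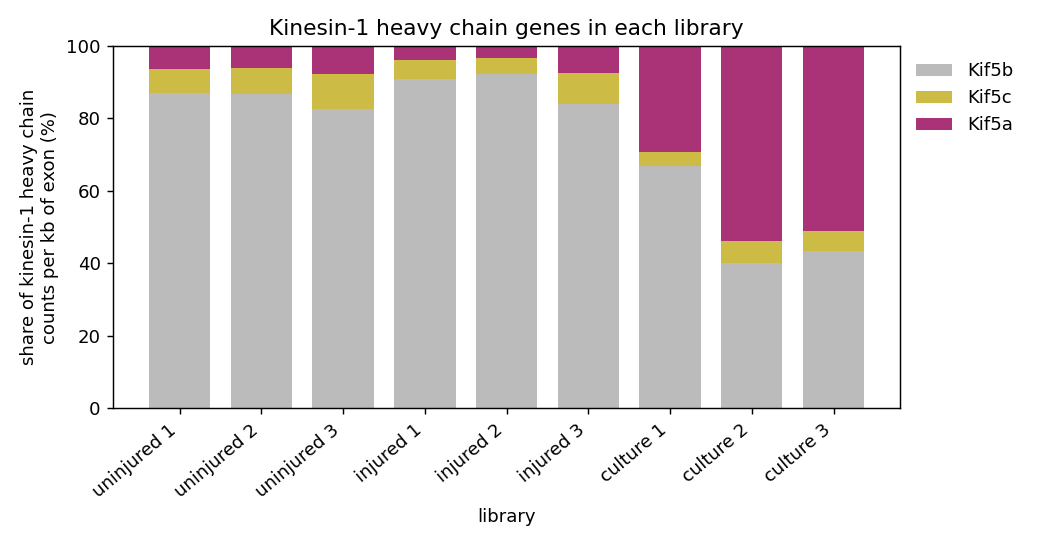
Share of kinesin-1 heavy chain counts per kb of exon (y axis, %) from Kif5b, Kif5c and Kif5a in each of the 9 libraries. Kif5a takes 3.44% to 7.8% in the 6 in vivo libraries and 29.3% to 53.8% in the 3 cultures.

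Of 12 neuron markers, 11 were tested, of which 3 were higher and 3 lower than in injured cortex, near the 20.0% and 30.1% of all genes tested. The list summed to 44.1 to 92.7 CPM in the cultures and 54.5 to 109 CPM in injured cortex. Snap25, a synaptic fusion protein, was at 2.15 to 4.94 CPM in the cultures (-1.51, adjusted p = 0.0326), Tubb3, the neuronal beta-tubulin, at 10.7 to 12.8 CPM (-2.03, adjusted p = 3.68e-04) and Syp, a synaptic vesicle protein, at 2.27 to 2.76 CPM (-1.32, adjusted p = 0.00296 in edgeR's test). Of 5 markers of young neurons, Dcx and Igfbpl1 had 0 counts in all 3 cultures, although Igfbpl1 had few counts in any library. Dlx2 was called higher in the cultures, at 2.58 to 3.50 CPM (5.91, adjusted p = 8.05e-05, edgeR), while Cd24a, at 19.0 to 34.9 CPM, and Sox11, at 1.78 to 3.21 CPM, were not called. Camk2a, a kinase gene on the neuron list, did move like Kif5a, at 0.524 to 1.46 CPM in injured cortex and at 17.4, 47.8 and 38.1 CPM in cultures 1, 2 and 3 (5.19, adjusted p = 4.93e-06, edgeR). Rbfox3 and Nefl were also higher, but stayed at or under 6.96 CPM. Set against uninjured cortex, 5 of the 11 tested markers were higher in the cultures and 1 lower, where 27.5% and 33.1% of all genes were. Tubb3 (0.01) and Snap25 (-0.57) were not called there, and Tubb3 had been called higher after injury (2.04).

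Partners of kinesin-1 were also measured. Among the light chains that link the heavy chains to cargo, Klc4 rose from 32.7 ± 7.29 to 87.7 ± 12.5 CPM (1.43 ± 0.21, adjusted p = 2.01e-04 in edgeR's test), while Klc1 was at 31.2 ± 11.5 and 39.0 ± 5.08 CPM and was not called (0.32 ± 0.25, adjusted p = 0.31). Trak2, an adaptor that ties mitochondria to the motor, rose from 9.11 ± 4.84 to 22.3 ± 3.47 CPM (1.29 ± 0.38). Mapk8ip1, a scaffold that couples kinesin-1 to vesicles, fell from 24.6 ± 5.34 to 1.97 ± 0.137 CPM (-3.64 ± 0.25, adjusted p = 3.75e-07, edgeR). A list of 12 kinesin partners, which also holds Kifap3, Kifbp, the mitotic kinesin Cenpe and the near copy Kifc5b, had 3 genes higher (Klc4, Trak2 and Cenpe) and 3 lower, near the 20.0% and 30.1% of all genes tested. Of 15 genes of dynein and dynactin, the motor that runs the other way, 5 were higher and 1 lower, with a median of 0.53, and the gene that fell was Dync1i1, an intermediate chain known from neurons (-1.50 ± 0.48).

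The transport kinesins that fell in the cultures include both kinesin-4 members of this role. Kif21a, which restrains microtubule growth at the cell cortex, was at 22.1, 17.1 and 34.7 CPM in injured cortex and at 1.97, 4.31 and 2.35 CPM in the cultures (-3.09 ± 0.36, adjusted p = 2.98e-05, edgeR). The groups did not overlap. Kif21b, a relative with similar action, was at 4.24, 7.24 and 8.76 CPM in the cultures (-2.11 ± 0.46, adjusted p = 0.00274, edgeR). Its groups did not overlap in spite of the wide spread in injured cortex.

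Kinesin-3 motors carry vesicles over long distances, and 4 of them fell. Kif1b went from 89.8, 67.0 and 234 CPM in injured cortex to 32.7, 35.9 and 41.7 CPM in the cultures (-1.83 ± 0.43, adjusted p = 0.0044, edgeR). Kif13a, which moves recycling endosomes, fell to 9.46, 8.57 and 9.55 CPM (-1.44 ± 0.37), and Kif13b, a relative, to 11.5, 12.2 and 12.5 CPM (-1.06 ± 0.30). Their adjusted p were 0.00653 and 0.0113 in edgeR's test, and the 3 genes had no overlap between groups. Kif1a, the motor of synaptic vesicle precursors, was at 85.0, 61.2 and 106 CPM and at 32.6, 66.3 and 54.6 CPM, which overlap (-0.72 ± 0.27, adjusted p = 0.0454, edgeR). The call of Kif1a was lost in 11 of 18 alternatives, with adjusted p up to 0.169. Within the same subfamily Kif16b, which positions early endosomes, rose from 3.82, 4.66 and 7.59 CPM to 13.3, 8.74 and 14.7 CPM (1.18 ± 0.37, adjusted p = 0.019, edgeR), a call lost when injured replicate 1 (0.0642), culture replicate 1 (0.0537) or culture replicate 3 (0.0678) was left out. Kif1c, at 6.80 ± 5.21 and 11.2 ± 3.23 CPM, did not pass (adjusted p = 0.28), but passed when injured replicate 3 was left out (0.0139).

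Of the kinesin-2 motors, Kif17 alone was called against injured cortex. Kif3a was at 71.4, 89.7 and 77.3 CPM in the cultures, with a mean between those of the 2 in vivo groups (0.43 ± 0.20 against injured cortex, adjusted p = 0.0884, edgeR). Its partner subunit Kif3b was at 12.4 ± 1.35 CPM and Kif3c at 7.07 ± 1.15 CPM, neither called against injured cortex. Kifap3, the subunit that joins Kif3a and Kif3b to cargo, was at 29.8 ± 11.6 and 22.9 ± 3.85 CPM (-0.39 ± 0.27, adjusted p = 0.251). Kif17, a homodimer known from dendrites and photoreceptor cilia, was low throughout, at 0.755, 0.262 and 1.12 CPM in injured cortex and at 0.184, 0.23 and 0 CPM in the cultures. It was called lower (-2.26 ± 0.83, adjusted p = 0.0384, edgeR) on 3, 4 and 0 culture counts, and the call was lost in 9 of 16 alternatives.

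Markers of cell types moved in this comparison too. Against injured cortex, all 7 oligodendrocyte markers, all 6 astrocyte markers and all 6 microglia markers were called lower in the cultures. Among all genes tested 30.1% were lower and 20.0% higher. The oligodendrocyte list summed to 12858 to 18072 CPM in injured cortex and 416 to 789 CPM in the cultures, the astrocyte list to 2031 to 3512 CPM and 82.8 to 146 CPM, and the microglia list to 5300 to 14462 CPM and 1564 to 2423 CPM. Fibroblast markers rose, 5 of 5, from 41.5 to 42.2 CPM up to 213 to 527 CPM. Of 5 mural cell markers 2 were higher and 3 lower, and their sum went from 459 to 499 CPM up to 3200.5 to 3734 CPM through Acta2, which changed by 6.41. Of 5 endothelial markers 3 were lower, and Pecam1 and Flt1 were not called. No marker of these 6 lists was at 0 in a whole group. The part of cell makeup in the changes of the transport kinesins was not tested.

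**Figure D4:**
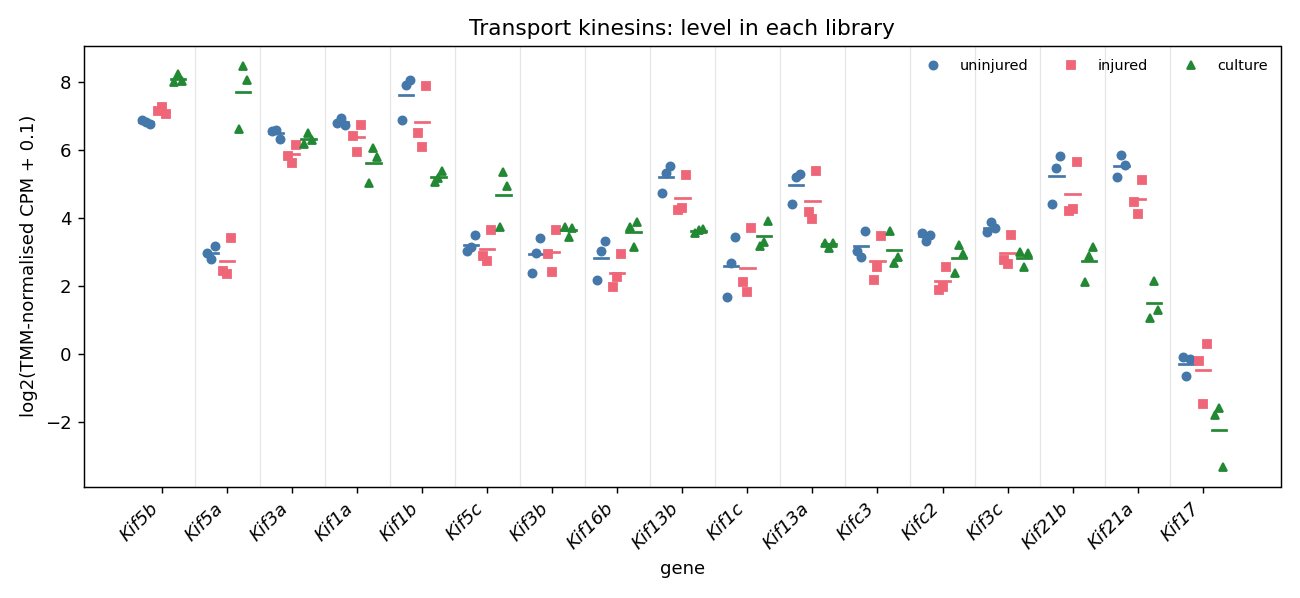
Level of the 17 transport kinesins in each library, as log2(CPM + 0.1), with 3 libraries per group, a bar at the group mean and genes ordered by their mean in the cultures. Kif5a stands at 97.2 to 353 CPM in the cultures against 4.97 to 10.4 CPM in vivo, whereas Kif21a is at 1.97 to 4.31 CPM against 17.1 to 57.2 CPM.

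Mitotic kinesins in the cultures exceeded their level in injured cortex. The 12 genes summed to 271, 223 and 191 CPM, above the 54.7 to 93.1 CPM of injured cortex, and culture replicate 1 was highest. That library was lowest for Kif5a and Kif5c. Kif22 reached 49.0, 60.3 and 50.1 CPM (1.56 ± 0.25, adjusted p = 2.84e-04 in edgeR's test) and Kif20b 27.1, 22.5 and 19.5 CPM (1.99 ± 0.27, adjusted p = 9.11e-05 in edgeR's test), and both separated fully from injured cortex.

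The other 7 mitotic members called higher in the cultures had log2 fold changes between 1.13 and 1.77. Kif20a was at 40.3, 30.4 and 26.7 CPM, Kif2c at 32.0, 29.0 and 26.1 CPM and Kif23 at 37.8, 22.0 and 20.2 CPM. Kif11 was at 27.5, 16.3 and 12.5 CPM, Kif4 at 17.9, 13.1 and 11.4 CPM, Kif18b at 14.9, 12.5 and 9.08 CPM and Kif18a at 10.9, 8.62 and 6.96 CPM. For each of these 7 genes culture replicate 1 was highest, and no culture fell into the range of injured cortex. The share of all genes that separate in this way was not counted in any comparison. Kif18b lost its call when injured replicate 2 (adjusted p = 0.0544), culture replicate 1 (0.0877) or culture replicate 2 (0.0671) was left out.

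Not called were Kif15 (0.44 ± 0.35, adjusted p = 0.311), Kif14 (1.09 ± 0.84, adjusted p = 0.296) and Kifc1 (1.24 ± 0.62, adjusted p = 0.115, all by edgeR). Kif15 was at 8.90, 4.6 and 5.16 CPM in the cultures against 4.72, 5.03 and 4.02 CPM in injured cortex, so culture replicate 1 stood well above the injured range, replicate 3 just above it and replicate 2 within it. Of the 20 spindle and midbody partners 15 were higher and 0 lower against injured cortex, with a median of 1.47. Of the 15 proliferation genes 14 were higher, where 20.0% of all genes tested were higher and 30.1% lower. Prc1, which works with Kif4 at the midzone, rose by 2.44 on the log2 scale and Tpx2 by 1.97.

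Against uninjured cortex, 14 members were higher in the cultures, against 27.5% of all genes tested, and 9 lower, against 33.1%. This comparison shares its libraries with the other 2. The mitotic members made up 11 of the 14, with a median of 4.67, and Kif4 went from 0.142 ± 0.117 to 14.2 ± 3.38 CPM (6.58 ± 0.49, adjusted p = 5.22e-07, edgeR). Kifc1, not called in the other comparisons, was at 2.95, 1.26 and 1.49 CPM in the cultures, above its 3 uninjured values (2.47 ± 0.68, adjusted p = 0.00756, edgeR). Kif14 remained uncalled (1.13 ± 0.86, adjusted p = 0.268), except without uninjured replicate 3 (adjusted p = 0.0398), with limma-voom (adjusted p = 0.0483) and without uninjured replicates 2 and 3 together. Kif5a, Kif5b and Kif5c were the 3 transport members called higher.

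The 9 lower members were Kif21a (-4.01), Kif21b (-2.59), Kif1b (-2.50), Kif17 (-2.25), Kif13a (-1.82), Kif13b (-1.62), Kif1a (-1.14), Kif3c (-0.88) and the cilium gene Kif6 (-1.63). The largest adjusted p among them was 0.0345, for Kif17, in edgeR's test. Kif3c, a kinesin-2 subunit that pairs with Kif3a, went from 11.8, 14.5 and 12.8 CPM to 7.80, 5.75 and 7.67 CPM (adjusted p = 0.0209 in edgeR's test), and 35.3% of its exon bases overlap the antisense gene 1110002L01Rik, at 4.39 ± 0.566 and 6.43 ± 1.09 CPM. Without uninjured replicates 2 and 3 the calls of Kif17, Kif13a, Kif3c and Kif6 were lost (adjusted p = 0.127, 0.0692, 0.21 and 0.319). The call of Kif3c was also lost without uninjured replicate 2 (0.0667) or culture replicate 2 (0.0691), and that of Kif17 in 9 of 17 alternatives.

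Levels of different genes can be compared per kb of exon. In uninjured cortex Kif3a was highest, at 25.1 ± 2.32 CPM per kb, followed by Kif5b (14.1 ± 0.638), Kif1a (12.1 ± 0.989) and Kif1b (11.8 ± 4.49). Kif1a and Kif1b did not differ beyond their spread. In injured cortex Kif5b (17.8 ± 1.18) and Kif3a (16.4 ± 3.14) came first, within each other's spread, and in the cultures Kif5a (34.2 ± 18.6) and Kif5b (34.0 ± 3.25), again within it. Kif22 was 4th in the cultures, at 10.8 ± 1.27 CPM per kb, against 0.328 CPM per kb in uninjured cortex. Exon lengths came from another annotation than the counts, so these orders hold only as far as the lengths do.

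**Figure D5:**
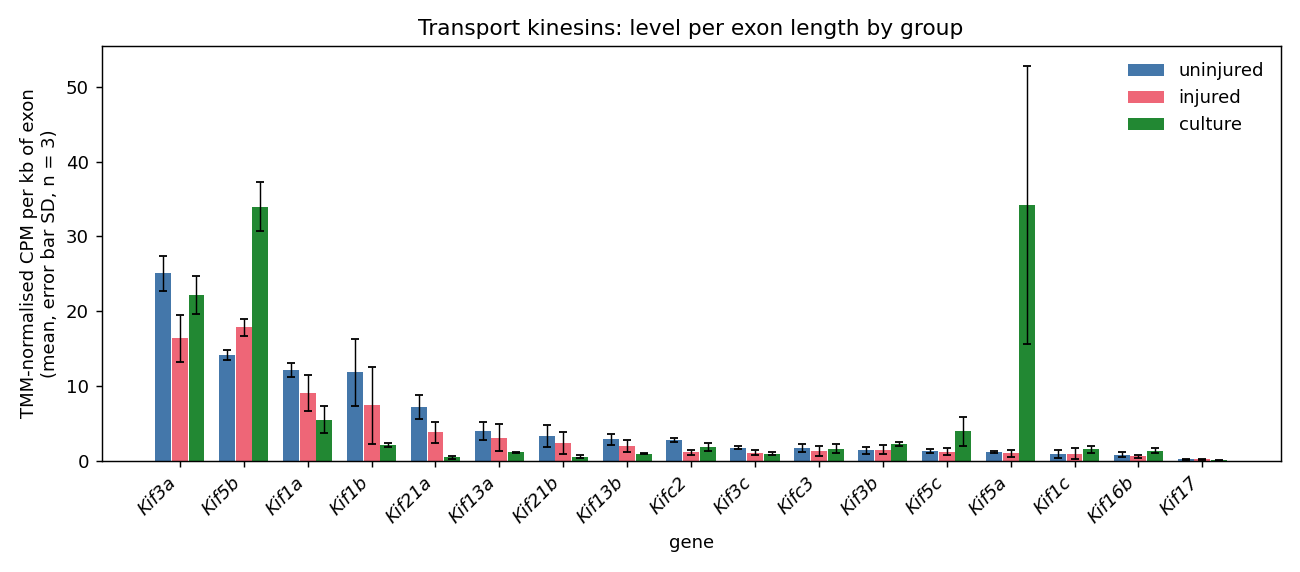
Mean level of the 17 transport kinesins per kb of exon (y axis, CPM per kb; error bar SD, n = 3) in the 3 groups, ordered by uninjured cortex. Kif3a leads in uninjured cortex at 25.1, and in the cultures Kif5a (34.2) and Kif5b (34.0) lead, with a wide error bar for Kif5a.

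Kinesins of cilia were low, and 1 call was made among them. Kif6, which ependymal cilia need, was at 1.33, 2.43 and 2.13 CPM in uninjured cortex, 1.46, 1.41 and 1.70 CPM in injured cortex and 1.11, 0.517 and 0.235 CPM in the cultures, and was called in cultures against uninjured cortex alone (adjusted p = 0.0218, edgeR). That call was lost without uninjured replicate 2 or 3 or culture replicate 2 or 3 (adjusted p from 0.0527 to 0.0783). Kif9, a motor of motile cilia, was between 1.55 and 3.82 CPM in all libraries, Kif19a, which limits cilium length, between 1.03 and 3.11 CPM, and Kif24, which holds cilia back, between 0.387 and 2.31 CPM. The 6 ependymal markers summed to at most 5.95 CPM in any library.

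Kif7, which sits at the tip of the primary cilium and sets the response to hedgehog, varied with single libraries. It was at 0.276, 0.9 and 1.95 CPM in uninjured cortex, 0.283, 0.105 and 2.01 CPM in injured cortex and 1.78, 1.67 and 2.27 CPM in the cultures, with no call in any comparison. Without injured replicate 3 it was higher in the cultures than in injured cortex (3.23, adjusted p = 0.00731, edgeR). Of 20 genes of intraflagellar transport and hedgehog signalling, 0 were called between injured and uninjured cortex, and 1 was higher and 6 lower in the cultures than in injured cortex, the latter a share close to the 30.1% of all genes tested. The 6 were the hedgehog transcription factors Gli1 (-3.02), Gli2 (-3.54) and Gli3 (-1.89), the receptor Ptch1 (-2.22), and the transport genes Ift140 (-1.71) and Dync2h1 (-1.89), and Ift20 was the gene that rose (0.54).

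The remaining members gave little signal. Kif2a, a microtubule depolymerase of neurons and dividing cells, was at 6.35 to 18.8 CPM across the 9 libraries with no call, and its exons overlap Dimt1 on the opposite strand by 19.2%. Kif26a, which has lost motor activity, was between 0.33 and 1.22 CPM. Too low to test were Kif26b (30 counts over all 9 libraries), Kif28 (27), Kif27 (12), Kif19b (10), Kif12 (5) and Kif2b (3). Of the counts of Kif28, 22 fell in uninjured replicates 2 and 3, the libraries with the receptor gene counts, and those of Kif26b in the cultures were 5, 6 and 7.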

How the data were processed

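RNA sequencing counts of 9 libraries, 3 per group, were used as the authors deposited them: raw counts per gene, 1 column per library. The submitters' processing notes name HISAT2 and GRCm39 with no version. How reads were counted, on which strand and with which gene models is not given in the sources used here.

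edgeR 4.0.16 in R 4.3.3 tested the 18093 genes that passed filterByExpr, using TMM factors, 1 mean per group over all 9 libraries, 6 residual degrees of freedom, quasi-likelihood tests and Benjamini-Hochberg adjustment over all genes tested, called under 0.05. An SE is the log2 fold change divided by the square root of its F value. Total counts per library ranged from 12205049 to 24302770, and the precision of low genes is limited by their few counts. Exon lengths (union of exons) and overlaps came from GENCODE M21 on GRCm38, of which only lengths and neighbours were used. The analysis was tested on simulated data. Alternatives were 2 other scalings, DESeq2 1.42.0, limma-voom (limma 3.58.1), 2 other filters, a fit of 2 groups alone, a replicate block and libraries left out. The roles and lists, but not the symbol rule that gave the members, were chosen with earlier results of these data known. Named genes were members called in any comparison, each with its library values for at least 1 comparison that called it. Members with at most 3 counts were also named, and up to 4 genes per list with the smallest adjusted p plus exceptions. Where a kinesin share was recomputed without single libraries, that choice was made after seeing the data. Kinesins outside this rule, and Klc1, Trak2, Kifap3, Gli1, Gli3, Snap25, Rbfox3, the young-neuron markers, Acta2, Pecam1 and Flt1, were named after their values were seen.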

Additional observations from a re-analysis of the deposited data

How the results depend on the processing

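Of 54 calls of a kinesin in a comparison, 43 held in every alternative run, up to 18 for a gene, and no call changed direction. Of 54 uncalled pairs, 36 were never called, and 21 changed sign while staying uncalled. The number of kinesins lower after injury, 1, was the least settled. It was 2 with DESeq2 size factors, upper-quartile factors, limma-voom or no filter, 3 with the DESeq2 Wald test, and from 0 to 8 with single libraries left out. Over these fits the share of all genes called lower ranged from 0.625% to 8.96%. Leaving out uninjured replicates 2 and 3 together leaves 1 uninjured library, assumed to vary like the other groups, so its counts of calls are not compared here. Over the other alternatives, numbers higher ranged from 9 to 10 for injured against uninjured cortex. They ranged from 12 to 18 for cultures against injured and from 14 to 15 for cultures against uninjured cortex. The shares of all genes called higher ranged from 4.49% to 12.9%, 9.21% to 22.8% and 13.5% to 29.9%. Numbers lower in the 2 comparisons of cultures ranged from 5 to 8 and 6 to 10, with 16.1% to 31.5% and 18.8% to 37.3% of all genes. Upper-quartile factors moved the median of all genes from 0.00 to -0.12 for injured against uninjured cortex. For cultures against uninjured cortex they moved it from -0.17 to -0.37. The kinesin-1 shares moved by less than the spread between libraries without division by length. Same-numbered libraries did not deviate together throughout (r from -0.13 to 0.41, over 0.1 in 4 of 9 pairs, and 5 of 9 libraries closest to their own number), so the numbers are not taken as pairs. With the replicate block, counts higher and lower were 9 and 1, 15 and 6, and 15 and 8 in the 3 comparisons. Genes under about 1 CPM, such as Kif14, Kif17 and Kifc1, rest on few counts.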
